A study of Brassica napus with 6 samples.

Results

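MT1C is a metallothionein gene of Arabidopsis thaliana, and it was followed here in the roots of oilseed rape (Brassica napus, cultivar Nourin No.16) through 1 probe set of an Arabidopsis array. It is 1 of 13350 genes that the platform annotation pairs with a probe set of their own, under the identifier 261410_at and Entrez gene 837274. The gene was chosen with its values in view: its level on each array, its place by signal among all probe sets, and its spread next to probe sets of like signal. Those quantities are therefore given as a description, without a test.

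Metallothioneins are small, cysteine-rich proteins whose thiol groups bind metal ions such as copper, zinc and cadmium. In plants they are grouped by the spacing of their cysteines, and the type 1 genes, to which MT1C belongs, are known in Arabidopsis for expression in roots and for a part in copper and cadmium handling. Glutathione, a tripeptide thiol, is the other main source of metal-binding thiols in plant cells, both by itself and as the building block of phytochelatins, which enzymes make from it. Metallothioneins, in contrast, are translated from their own messenger RNA, so a transcript array can follow their genes.

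The roots came from 4-week-old plants in 2 groups of 3 arrays, which the labels call biological replicates. In the foliar GSH group, reduced glutathione was brushed daily on 3 expanded leaves per plant for 4 days, 50 µL of a 100 mM solution to each leaf. The control group was left untreated over the same 4 days. No brushing with the carrier solution (MES-KOH buffer and Triton X-100) is named for the controls, so the effect of glutathione and that of the applied solution cannot be told apart. All plants stood in aerated nutrient solution, 4 seedlings to a container. The labels do not say whether the replicates of a group shared a container. The RNA is from root tissue in bulk, where a change in the cell types present and one in RNA per cell cannot be told apart.

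The deposited values were on a log scale and were nearly the same on every array. No correlation between 2 arrays fell short of 1 by more than 1.52e-08. Every array had a median of 5.84 and quartiles of 5.67 and 6.06, and a probe set typically ranged over only 1.91 millionths of a unit across the 6 arrays. The array medians themselves spanned 3.46 millionths, more than the range of several genes named below. The deviations given per array are not centred on these medians. Millionths of a deposited unit serve below as the unit of every difference. These are not fold changes, and their size cannot be set against that of other probe sets as a change in RNA amount. EXPA7 and EXPA18, expansin genes of root hairs with mean signals of 6.13 and 5.95, were both brighter than the array median. So was RCA, the leaf gene of rubisco activase, with 6.04, while the chlorophyll-binding protein gene LHCB4.1, also a leaf gene, had 5.75. Signals of different probe sets depend on their own affinity, so these 4 values do not rank the transcripts.

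MT1C gave one of the brightest signals in these roots. Its mean over the 6 arrays was 8.14 on the deposited log scale, which put it at rank 125 of 22746 probe sets, within the top 0.55%. The rank was 125 on each of the 6 arrays. The next brighter probe set stood 17553 millionths higher and the next dimmer one 3205 millionths lower, while MT1C itself ranged over 751 millionths. Among probe sets paired with 1 gene alone, MT1C stood at rank 46. The rank is one of signal: rape RNA was read through Arabidopsis probes, oilseed rape carries several related copies of most Arabidopsis genes, and MT1C has a close relative in MT1A, so the signal may sum several transcripts. Which rape copies it reads was not tested.

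The genes next to MT1C in signal had mixed roles, with a ribosomal protein gene on either side. The nearest 3 brighter genes were rps3, which encodes a ribosomal protein, NRPB12, a subunit of RNA polymerase II, and accD, the plastid-encoded subunit of acetyl-CoA carboxylase, with mean signals of 8.16, 8.17 and 8.18. The nearest 3 dimmer ones were the ribosomal protein gene AT4G34670, the cytochrome c gene CYTC-1 and AT2G44670, with 8.12, 8.11 and 8.10. Over the 6 arrays these neighbours ranged from 15.2 millionths at CYTC-1 to 121 millionths at AT4G34670, all less than the 751 millionths of MT1C.

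On each array, MT1C was brighter in roots of GSH-treated plants than in any control root. Foliar GSH replicates 1, 2 and 3 had deposited values of 8.145002, 8.145170 and 8.144891. Control replicates 1, 2 and 3 had 8.144759, 8.144688 and 8.144419. The 2 groups did not overlap, and the lowest GSH array lay 133 millionths above the highest control array. That gap was narrower than the spread inside either group, which was 279 millionths over the GSH arrays and 340 millionths over the controls. GSH replicate 2 was the highest of all and control replicate 3 the lowest. Such a separation was common in the table: all GSH arrays lay above all controls at 5.63% of probe sets and below them at 5.75%. Because MT1C was chosen from this contrast, its separation and the ranks of its difference below describe these arrays and support nothing further.

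**Figure D1:**
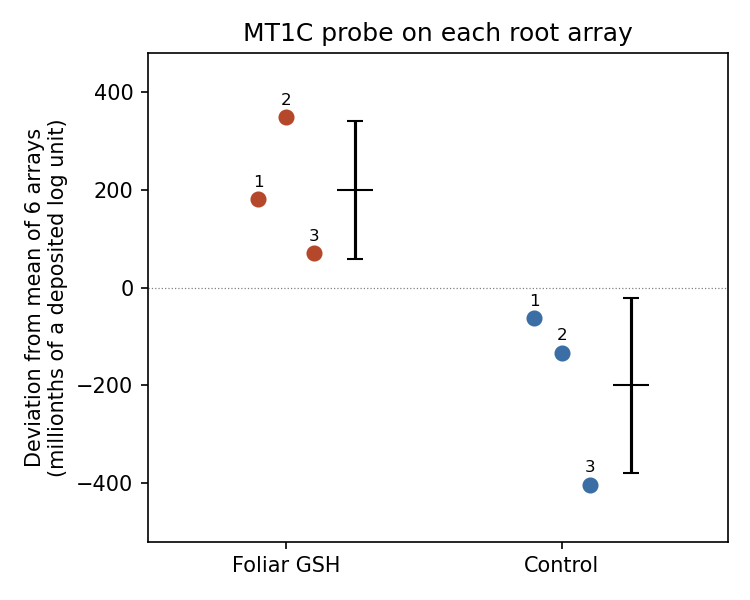
MT1C signal on each of the 6 root arrays, as the deviation from the mean of the 6 in millionths of a deposited log unit, for foliar GSH (left) and control (right). Points are single arrays with their replicate numbers and bars show the group mean ± SD (n = 3); the GSH arrays lie between 70 and 349 and the controls between -403 and -62.8.

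The mean was 8.145021 for foliar GSH and 8.144622 for control, with SDs of 140 and 179 millionths (n = 3 each). The difference, foliar GSH minus control, was 399 millionths with a standard error of 120 millionths in the limma fit over all probe sets, or 2.48 times the pooled SD within groups. Read as base-2 logarithms, 399 millionths would be a ratio of only 0.0277% above 1. Whether the deposited scale keeps expression ratios was not tested. By limma with Benjamini-Hochberg adjustment over 22746 probe sets, 0% passed an adjusted p of 0.05, and MT1C was not called. The smallest adjusted p of any probe set was 0.062, and 1535 probe sets had an unadjusted p under 0.05, 713 of them higher and 822 lower after GSH.

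The place of the MT1C difference in the table depended on the measure. By the raw difference MT1C was 14th among the upward differences and 19th in either direction, of 22746. By its SD within groups it was 43rd, and by its range over the 6 arrays 30th. Dividing each difference by the probe set's own SD within groups removes any scale factor that the deposited table gave to single probe sets. On that measure MT1C was at rank 1088, with 4.78% of all probe sets further from 0.

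The spread of a probe set widened with its signal, so MT1C was also set beside the 200 probe sets nearest to it in mean signal, between 7.64 and 8.64. Of these, 56 were brighter and 144 dimmer than MT1C. The SD within groups of MT1C, 161 millionths, was larger than that of 188 of the 200, which put it at the percentile 94. Their median SD was 8.75 millionths, with quartiles of 3.40 and 25.7 and a maximum of 806, so MT1C spread 18.4 times as widely as the typical neighbour. In deposited units, the range was thus large among replicates that had received the same treatment, as well as between the groups. Any scale factor given to single probe sets would enter these comparisons of SD. They do not show that MT1C RNA varied more than that of other genes.

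**Figure D2:**
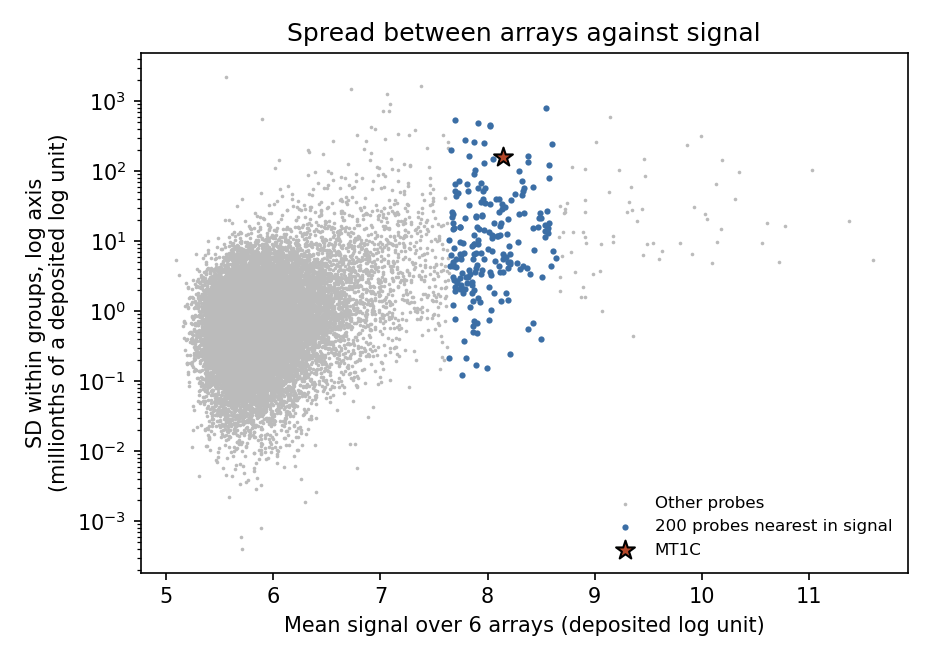
SD within groups (log axis, millionths of a deposited log unit) against mean signal over 6 arrays (deposited log unit) for 22746 probe sets. MT1C (star), with an SD of 161 millionths, lies near the upper edge of the 200 probe sets nearest to it in signal (blue), whose median SD is 8.75 millionths.

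Beside those neighbours the difference between groups was among the largest in raw size. Only 7 of the 200 had a larger difference in either direction and 5 a larger upward one, and the median size was 12.8 millionths. After division by the SD within groups, however, 58 of the 200, or 29%, lay further from 0 than MT1C, and the median size was 1.70 SDs against 0.63 SDs over all probe sets. Separated groups were also more frequent at this brightness than in the whole table. All GSH arrays lay above all controls at 25 of the 200 neighbours (12.5%) and below them at 67 (33.5%), and 123 of the 200 had a lower mean after GSH. Neighbours share arrays and RNA samples, so these counts describe the 6 arrays and carry no test.

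The 3 neighbours with a single gene and the widest spread all had higher values after GSH too. AT4G30450 had the widest spread, with a mean signal of 7.69, an SD within groups of 534 millionths and a difference of 1480 millionths (SE 397). AT3G15450, which encodes a protein of the aluminium-induced type, had an SD of 442 and a difference of 753 millionths (SE 328). AT1G07040 had an SD of 263 and a difference of 1296 millionths (SE 195), or 4.93 SDs, against the 2.48 SDs of MT1C. At all 3 genes the GSH arrays lay above all controls, and none passed the limma threshold over all probe sets.

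The genes whose pattern over the 6 arrays was most like MT1C were ranked by Pearson's r, as a description without a p. These r values run over 6 points that fall into 2 groups which do not overlap, so the step between groups raises them. For that reason the r of the deviations from group means is given beside each. RD2, known in Arabidopsis as a desiccation-responsive gene, was the likest, with r = 0.989, and 0.965 for the deviations. AT5G32450 followed with r = 0.988 and 0.998 for the deviations, AT2G30530 with 0.986 and 0.975, the vacuolar protease gene GAMMA-VPE with 0.985 and 0.953, and AT1G19600 with 0.981 and 0.947. All 5 followed MT1C inside the groups as well as between them. They were picked by r over the same 6 arrays, so that choice also raises the r of the deviations. It is no separate support for a shared pattern.

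RD2 resembled MT1C in level and in spread as well as in order. Foliar GSH replicates 1, 2 and 3 of RD2 deviated from its own mean by 143, 305 and 32.5 millionths. Control replicates 1, 2 and 3 deviated by -25.4, -158 and -297 millionths. As with MT1C, GSH replicate 2 was highest and control replicate 3 lowest, and the Spearman rank correlation was 1. RD2 had a mean signal of 8.38, at rank 96, and a difference of 320 millionths (SE 101), 2.35 times its SD within groups. The other 4 genes had the same general order on a far smaller scale, with ranges from 0.558 millionths at AT5G32450 to 18.0 millionths at AT1G19600, against 751 millionths for MT1C. AT2G30530 was read by a dim probe set, at a mean signal of 5.41, well below the array median of 5.84.

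**Figure D3:**
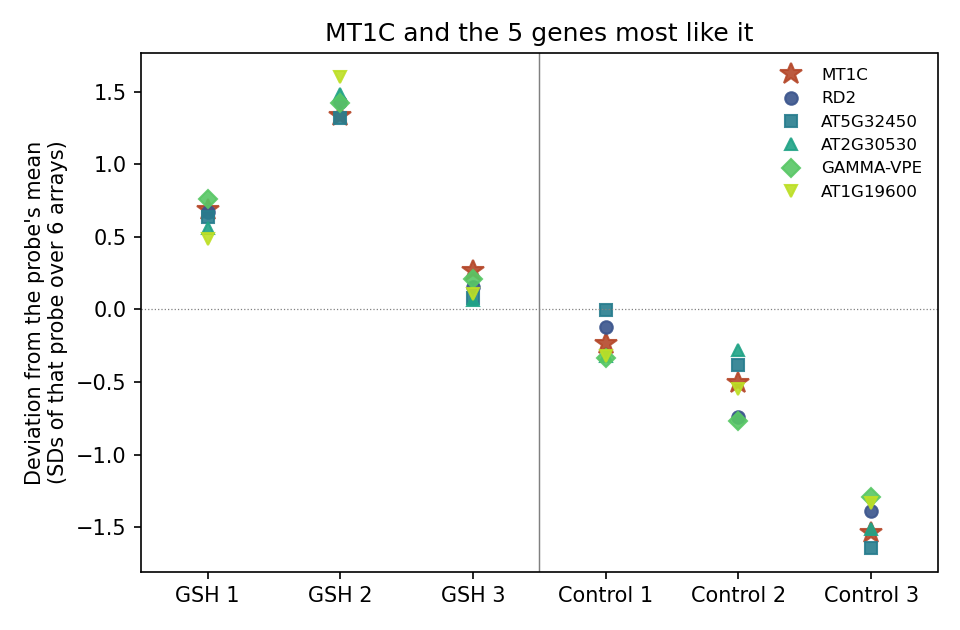
Deviation of MT1C (star) and of the 5 genes most like it from each probe set's mean, in SDs of that probe set over the 6 arrays, with the foliar GSH arrays left of the line and the controls right. All 6 genes are highest on GSH replicate 2 and lowest on control replicate 3.

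High values of r were to be found in both directions. Of 22745 other probe sets, 59 had an r above 0.95 with MT1C and 67 an r below -0.95, and the median r was 0.0108. Among the 200 neighbours in signal the median r was -0.428, with 5 above 0.95 and 3 below -0.95. The typical neighbour in signal therefore did not share the pattern of MT1C. Values of r beyond 0.95 in either direction were nonetheless more frequent among the 200 than in the whole table.

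Few other genes of metal and thiol handling could be matched to a probe set of their own. Of 66 genes in 7 lists, 6 were measured with MT1C among them, and MT1C was the only one of 8 metallothioneins. None of 4 ferritins, 4 nicotianamine synthases and 10 genes of superoxide and peroxide removal was matched. Of the 6 measured genes 0 were called in either direction, as were 0% of all probe sets. CCS, the copper chaperone that loads superoxide dismutase, was the only one of 12 copper genes, with a mean signal of 6.13 against 8.14 for the MT1C probe set. Its GSH arrays deviated from its mean by 4.31, 1.87 and 0.563 millionths and its control arrays by -4.47, 0.632 and -2.91 millionths, so the groups overlapped at GSH replicate 3 and control replicate 2.

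The 3 measured genes of 20 in zinc and cadmium transport did not share one direction. ZIP9, a zinc transporter, deviated by 1.78, -0.355 and 1.36 millionths on the GSH arrays and by -1.15, -0.372 and -1.26 millionths on the control arrays. The groups of ZIP9 did not overlap, but GSH replicate 2 and control replicate 2 nearly met. The related transporter ZIP6 differed by -0.757 millionths (SE 1.09) and the zinc-deficiency regulator bZIP19 by -0.14 millionths (SE 0.287), and both overlapped. GR1, a glutathione reductase and the only measured gene of 8 in glutathione and phytochelatin synthesis and recycling, had a mean signal of 7.14 yet ranged over only 0.643 millionths, with a difference of 0.0137 millionths (SE 0.259). GR1 and MT1C, both among the brighter probe sets, thus differed widely in the spread they had between arrays. ZIP9, ZIP6, bZIP19 and GR1 each ranged over 3.04 millionths or less. That is below the 3.46 millionths spanned by the array medians, which limits what their directions show.

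Markers of root and leaf cells were set beside MT1C because roots hold several cell types. EXPA7 deviated by -35.7, -32.5 and 27.2 millionths on the GSH arrays and by 5.15, 1.73 and 34.1 millionths on the control arrays, and the groups overlapped. Its r with MT1C over the 6 arrays was -0.789, and -0.763 for the deviations from group means. For EXPA18 these values were -0.623 and -0.866. EXPA7 and EXPA18 were the measured ones of 8 root cell markers. The leaf genes RCA and LHCB4.1, 2 of 5, ranged over 0.295 and 0.652 millionths, with groups that overlapped. Their r with MT1C was -0.311 and 0.424, and -0.12 and -0.331 for the deviations. The part of root cell composition in the MT1C values was not tested.

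MT1C values did not overlap between the groups, so leaving out any single array could not change the direction of the MT1C difference. Its size then lay between 298 and 468 millionths. It was lowest without control replicate 3, the lowest array, and next lowest, at 325 millionths, without GSH replicate 2, the highest. Quantile normalization, which gives every array the same set of values by rank, set the difference to 0. MT1C holds rank 125 on every array, so this setting cannot show a difference of this size at MT1C.

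**Figure D4:**
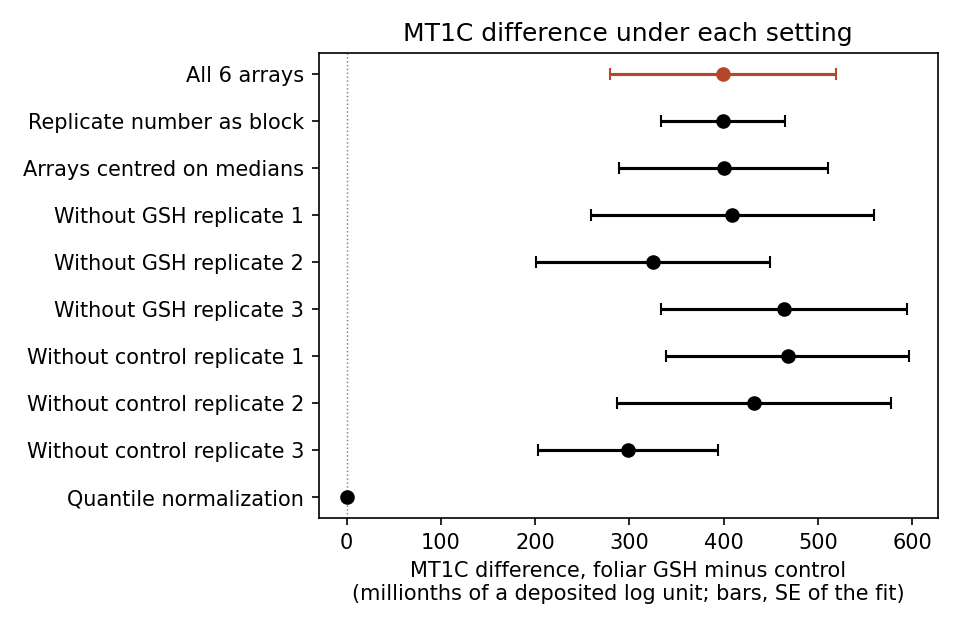
MT1C difference, foliar GSH minus control, in millionths of a deposited log unit, under each setting, with the standard error of the limma fit as bars. Values without single arrays lie between 298 and 468, and quantile normalization gives 0 because the rank of MT1C is the same on every array.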

How the data were processed

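Total RNA of roots was labelled with biotin from 100 ng and hybridised to 6 single-colour arrays, per the labels' protocols. The authors deposited one table of log-scale values from 5.09 to 12.9, which were handled as log2, though their range does not settle the base. How background was corrected, probes summarised and arrays normalized, and to which base logs were taken, is not given in the sources used here. The submitters' processing notes name R 2.7.2. The values were used as deposited.

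Of 22810 probe sets, 64 array controls were left out. The annotation paired 13513 of the remaining 22746 with 1 gene and 503 with several, and 8730 are unnamed here. MT1C matched 1 probe set by symbol. Symbols in the RefSeq gene list for rape do not include MT1C, and that list served no step.

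The comparison of the groups used limma 3.58.1 under R 4.3.3 (lmFit, eBayes, Benjamini-Hochberg adjustment over 22746 probe sets, threshold 0.05). The code of this step was run on simulated data with equal noise at every probe set and large shifts. In the deposited values the spread differed widely between probe sets, so the simulation does not show how limma performs on them. Ranks, the pooled SD within groups, the 200 nearest probe sets in mean signal and Pearson's r were computed in Python 3.11.15. Named were 3 genes on each side of MT1C in signal, the 5 with the highest r, the 3 of widest spread among the 200 neighbours, and up to 3 measured genes of each list by signal. The gene and the lists were chosen with earlier results of these data known. Alternatives were leaving out each array, other normalizations, a block for the replicate number, variance settings, a filter on dim probe sets, another threshold, other numbers of neighbours and other measures of spread. Counting depth does not apply to arrays, and their number limits the precision.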

Additional observations from a re-analysis of the deposited data

How the results depend on the processing

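The count of probe sets called by limma was 0 with all arrays, without any single array (from 0 to 0), with arrays centred on their medians and with trended or robust variance. It was 27 under quantile normalization, where only 2688 probe sets still varied, 4 among probe sets above the median signal, 4 at an adjusted p under 0.10, and 1 with the replicate number as a block. The MT1C difference was 0 under quantile normalization and 400 millionths with arrays centred on their medians. With the replicate block it was again 399 millionths, with a standard error of 65.7. Deviations from group means, compared between arrays of one number, correlated at -0.451, -0.473 and -0.00627, and none of the 3 GSH arrays correlated best with the control of its own number, so the numbers were not taken to pair the arrays. Without single arrays the difference ran from 298 to 468 millionths. The rank by signal stayed at 125 without each array and by the median of arrays. MT1C held rank 125 on every array, so these settings could hardly move it. Its rank was 46 among probe sets paired with 1 gene, where fewer were ranked. The spread percentile was 94 in the neighbourhood of 200, 96 with 50 neighbours, 95.8 with 500, and between 92.5 and 96 without single arrays.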

Other observations

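The probe set most like MT1C over all 22745 others has no gene name here. It is 246777_at, with r = 0.9975 over the 6 arrays and 0.996 for the deviations from group means, and it was singled out after its values were seen. Its mean signal of 5.83 lay at the middle of the arrays, and it ranged over 8.06 millionths, against 751 millionths for MT1C.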
